A study of Mus musculus with 15 samples.

Results

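The interferon regulatory factors are a family of transcription factors that bind response elements in the promoters of interferon genes and of genes that interferon induces. The 7 family genes described here, Irf1, Irf2, Irf3, Irf5, Irf7, Irf8 and Irf9, were taken by symbol from the deposited count tables, which hold 25748 symbols. All 7 passed the filter on low counts. Irf4, which was also looked up, had 5 counts in all in Rg1 plus LPS, 2 in LPS and 3 in control, too few for a test.

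The members act at different steps. IRF3 and IRF7 sit in the cytoplasm until the kinases TBK1 and IKK-epsilon phosphorylate them below Toll-like receptors and nucleic acid sensors, and they then switch on interferon genes. IRF5 works below the adaptor MyD88 and drives inflammatory cytokine genes. IRF9 is the DNA-binding subunit of ISGF3, the STAT-containing complex that type I interferon activates. IRF1 is itself induced by interferon gamma and NF-kB and activates many of the same targets, IRF2 competes with it at shared sites, and IRF8 is required for normal microglia and macrophages. Astrocytes, the glial cells that support neurons, respond to type I and type II interferon.

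Polyadenylated RNA of primary mouse brain astrocytes was sequenced in 15 libraries, 5 in each of 3 groups. Cells of the Rg1 plus LPS group were first given ginsenoside Rg1, a ginseng saponin, at 80 µM for 12 h and then 1 µg/mL lipopolysaccharide (LPS), a bacterial cell wall component that TLR4 detects, for 6 to 8 h. The LPS group, which the submitters label SCI, received 1 µg/mL LPS for 6 to 8 h without Rg1, and the control group was untreated. The samples analysed here hold no group given Rg1 alone, and the labels used here give no animal age. Nothing in them ties replicates to different cultures or animals, so p-values measure only the spread between these samples, which may be technical.

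Libraries held 36196791 to 41147782 counts in Rg1 plus LPS, 34199966 to 41764010 in LPS and 34347116 to 39039780 in control. Mitochondrially encoded genes took 2.77 to 4.98% of counts in Rg1 plus LPS, 1.58 to 2.37% in LPS and 2.49 to 2.80% in control. The 12 astrocyte markers looked up, Slc1a3 among them, were all tested, and their summed normalised read count was 6769 to 10575 CPM in Rg1 plus LPS, 6268 to 10737 CPM in LPS and 9550 to 12145 CPM in control. CPM values here are scaled to library sizes corrected by TMM, the edgeR normalization. Each of 17 microglia and macrophage markers had counts in every library. Rg1 plus LPS replicate 5 stood apart in base composition: the median centred log2 CPM of GC-rich genes minus that of GC-poor genes was 0.37 in it, against -0.033 to 0.075 in the other Rg1 plus LPS libraries, -0.17 to 0.072 in LPS and -0.12 to -0.011 in control.

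Together the 7 genes had a summed level of 59.7 ± 13.7 FPKM in Rg1 plus LPS, 179.6 ± 21.8 FPKM in LPS and 59.4 ± 8.27 FPKM in control (SD, n = 5 each), and the LPS libraries lay above all others. FPKM is the deposited length-scaled value, so comparisons of levels between genes rest on the length used for each symbol. The lengths behind it were 12519 bases for Irf2, 7512 for Irf5, 3359 for Irf1, 2532 for Irf3 and 1934 for Irf7. In CPM, Irf2 averaged 24.1 and Irf7 16.5 in Rg1 plus LPS, where FPKM put Irf7 above Irf2. Irf1 alone held 13.3 ± 0.911% of this sum in Rg1 plus LPS, 74.3 ± 1.60% in LPS and 34.1 ± 5.00% in control. In bulk RNA such as this, fewer cells of a type and less RNA per cell cannot be told apart.

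The order of the family changed with the group. In Rg1 plus LPS the mean levels ran from Irf9 at 22.5 FPKM through Irf3 at 17.9, Irf7 at 8.85, Irf1 at 8.02, Irf2 at 2.01 and Irf5 at 0.281 to Irf8 at 0.0455 FPKM. In LPS the order was Irf1 at 133 FPKM, Irf9 at 19.4, Irf3 at 12.5, Irf7 at 9.36, Irf2 at 2.92, Irf5 at 1.95 and Irf8 at 0.0983 FPKM. Control cultures had Irf1 at 20.5 FPKM, Irf9 at 18.2, Irf3 at 10.4, Irf7 at 7.89, Irf2 at 1.67, Irf5 at 0.454 and Irf8 at 0.172 FPKM. Neighbours in these orders whose libraries overlapped were Irf9 with Irf3 and Irf7 with Irf1 in Rg1 plus LPS, Irf3 with Irf7 in LPS, and Irf1 with Irf9, Irf3 with Irf7 and Irf5 with Irf8 in control. Every other pair of neighbours was separate in all 5 libraries of its group. By FPKM, Irf1 was thus the most abundant member by a wide margin in LPS and only the fourth in Rg1 plus LPS.

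**Figure D1:**
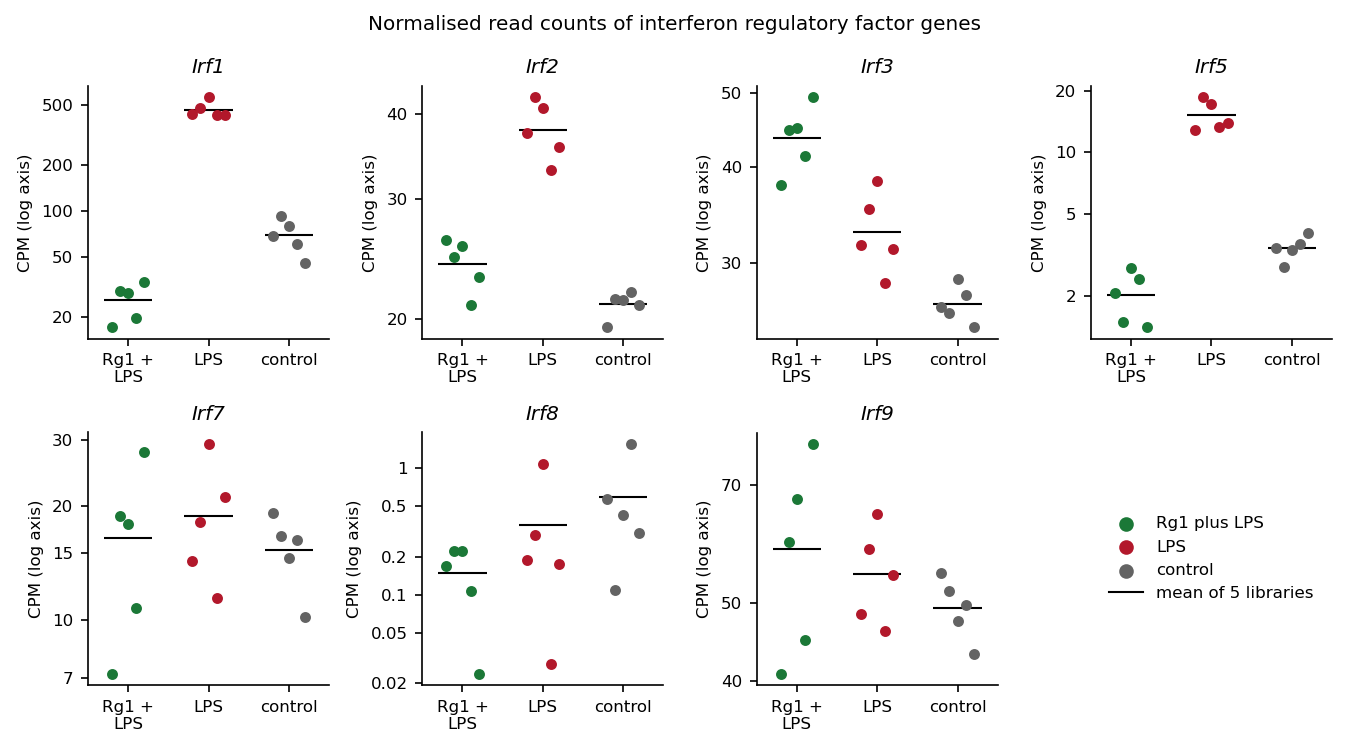
Normalised read count (CPM, log axis) of each interferon regulatory factor gene in every library of Rg1 plus LPS, LPS and control; points are libraries and lines are means of 5. The LPS libraries stand above both other groups for Irf1, Irf2 and Irf5, the Rg1 plus LPS libraries are highest on average for Irf3, and the groups overlap for Irf7, Irf8 and Irf9.

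The 3 comparisons were made in a single edgeR quasi-likelihood fit over all 15362 tested genes, with Benjamini-Hochberg adjustment over all of them, and a gene is called changed at an adjusted p under 0.05. In LPS against control, 4 of the 7 members rose (Irf1, Irf2, Irf3 and Irf5) and 0 fell, where 23.7% of all tested genes changed, 13.8% upward and 9.82% downward. Against LPS, Irf1, Irf2 and Irf5 fell in Rg1 plus LPS and Irf3 rose, where 45.4% of all genes changed, 22.2% upward and 23.2% downward. Against control, Irf3 rose in Rg1 plus LPS and Irf1 and Irf5 fell, where 36.9% of all genes changed, 18.8% upward and 18.1% downward. The median log2 fold change of the members was 0.31, -0.65 and 0.10 in the same order of comparisons, beside -0.0029, 0.028 and 0.011 over all tested genes. The comparisons share libraries: the 5 LPS libraries enter the first and the second, and the 5 Rg1 plus LPS and 5 control libraries each enter 2 comparisons. In each comparison the groups did not overlap for 3 of the 7 members, where the share of all genes without overlap was 20.4% in LPS against control (12.8% higher, 7.64% lower), 27.5% in Rg1 plus LPS against LPS (12.4% higher, 15.1% lower) and 26.2% for Rg1 plus LPS against control (13.2% higher, 13.0% lower).

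**Figure D2:**
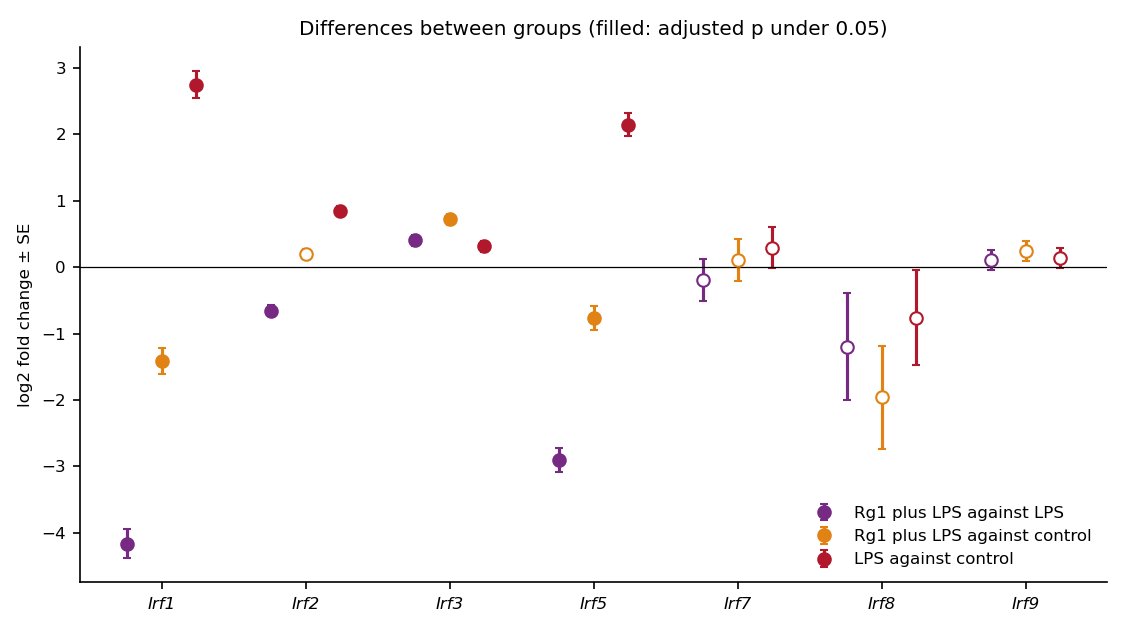
Log2 fold change ± SE of each member in Rg1 plus LPS against LPS, Rg1 plus LPS against control and LPS against control; filled points have adjusted p under 0.05. Irf1 spans from -4.16 in Rg1 plus LPS against LPS to 2.75 in LPS against control, Irf3 lies above 0 in all 3 comparisons, and no point of Irf7, Irf8 or Irf9 is filled.

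Irf1 (gene on chr11:53770014-53778374, plus strand, GRCm38.p6) had the largest differences of the family. It had 17.2, 29.8, 28.9, 19.6 and 33.9 CPM in the 5 Rg1 plus LPS libraries, 433, 474.5, 558, 426 and 431 CPM in the LPS libraries and 68.8, 92.5, 79.5, 60.1 and 45.5 CPM in the control libraries. Every Rg1 plus LPS library lay below every control library, and every LPS library lay above both groups. Means were 25.9 ± 7.14 CPM in Rg1 plus LPS, 464 ± 55.8 CPM in LPS and 69.3 ± 17.99 CPM in control (SD, n = 5 each). Irf1 fell in Rg1 plus LPS against LPS (log2 fold change -4.16 ± 0.22, SE, edgeR adjusted p = 6.81e-10) and against control (-1.42 ± 0.20, adjusted p = 6.19e-05). In LPS against control it rose (2.75 ± 0.20, adjusted p = 6.93e-08).

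Irf2 (chr8:46739745-46847458, plus strand) moved the same way as Irf1 wherever LPS was compared, on a smaller scale, with means of 24.1 ± 2.08 CPM in Rg1 plus LPS, 37.9 ± 3.71 CPM in LPS and 21.0 ± 0.934 CPM in control (SD, n = 5 each). Its values were 26.1, 24.7, 25.6, 21.0 and 23.1 CPM in Rg1 plus LPS, 37.5, 42.3, 40.8, 33.1 and 35.8 CPM in LPS, and 19.5, 21.4, 21.4, 21.9 and 21.0 CPM in control. The LPS libraries were separate from both other groups, while Rg1 plus LPS and control overlapped through Rg1 plus LPS replicate 4. Irf2 fell in Rg1 plus LPS against LPS (-0.65 ± 0.08, edgeR adjusted p = 4.15e-06) and rose in LPS against control (0.85 ± 0.08, adjusted p = 3.87e-07). Rg1 plus LPS against control gave 0.20 ± 0.08 (edgeR adjusted p = 0.0572), short of the threshold. Irf2 is among the longest tested genes, at length percentile 94.7, and the median centred log2 CPM of long minus short genes was -0.38 to -0.16 in Rg1 plus LPS, 0.077 to 0.25 in LPS and 0.023 to 0.16 in control. With that length trend removed, Irf2 passed in Rg1 plus LPS against control (0.40, edgeR adjusted p = 0.000825) and still fell in Rg1 plus LPS against LPS (-0.42, adjusted p = 0.000342).

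The ratio of Irf1 to Irf2, the activator and its competitor, was compared per library on the FPKM scale, so its size rests on the gene lengths used. It was 2.44, 4.49, 4.19, 3.47 and 5.45 in Rg1 plus LPS, 42.9, 41.7, 50.8, 47.8 and 44.7 in LPS, and 13.1, 16.0, 13.8, 10.2 and 8.03 in control. No groups overlapped, with Rg1 plus LPS lowest and LPS highest. The mean log2 ratio differed by -3.55 in Rg1 plus LPS against LPS, -1.62 in Rg1 plus LPS against control and 1.94 in LPS against control, each with p = 0.00794 in an exact two-sided permutation test, the smallest value 5 against 5 libraries can give, and the same value after adjustment over the 3 comparisons.

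**Figure D3:**
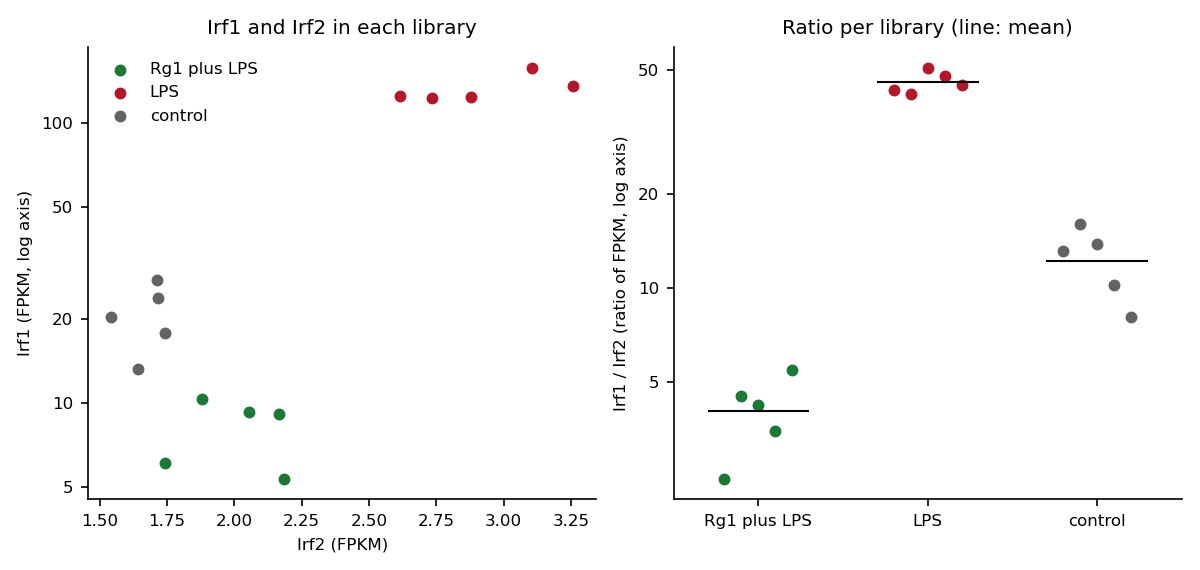
Left, Irf1 (FPKM, log axis) against Irf2 (FPKM) in each library; right, the ratio of the 2 FPKM values per library (log axis) with group means as lines. The Rg1 plus LPS libraries lie between 2.44 and 5.45, the LPS libraries between 41.7 and 50.8 and the control libraries between 8.03 and 16.0.

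The promoter windows of the 3 members that fell in Rg1 plus LPS against LPS and rose in LPS against control are shown because they set the matches of Irf1 and Irf2 beside a window without any. Windows run from 250 bases before to 50 after the start that RefSeq gives (GRCm38.p6, plus strand), which for Irf5 lies inside the gene's span, and were searched on both strands for the gamma-activated site TTCNNNGAA, an element of promoters that answer interferon gamma, the interferon-stimulated response element (GAAA, any 2 bases, GAAA), which IRF family proteins and ISGF3 bind, and the kappa-B consensus of NF-kB. Capitals mark matches.
Irf1, chr11:53769764-53770063: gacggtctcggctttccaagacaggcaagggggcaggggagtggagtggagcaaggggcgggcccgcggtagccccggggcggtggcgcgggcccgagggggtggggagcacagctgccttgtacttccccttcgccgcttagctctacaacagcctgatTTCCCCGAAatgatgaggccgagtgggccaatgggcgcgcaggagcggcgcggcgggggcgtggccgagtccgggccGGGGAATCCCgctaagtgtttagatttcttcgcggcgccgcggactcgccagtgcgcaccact
Irf2, chr8:46739495-46739794: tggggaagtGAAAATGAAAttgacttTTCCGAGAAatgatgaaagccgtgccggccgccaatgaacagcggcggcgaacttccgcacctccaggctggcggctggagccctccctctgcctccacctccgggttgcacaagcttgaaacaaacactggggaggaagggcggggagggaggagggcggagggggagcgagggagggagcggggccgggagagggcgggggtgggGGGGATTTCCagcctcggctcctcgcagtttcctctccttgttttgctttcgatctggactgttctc
Irf5, chr6:29526375-29526674: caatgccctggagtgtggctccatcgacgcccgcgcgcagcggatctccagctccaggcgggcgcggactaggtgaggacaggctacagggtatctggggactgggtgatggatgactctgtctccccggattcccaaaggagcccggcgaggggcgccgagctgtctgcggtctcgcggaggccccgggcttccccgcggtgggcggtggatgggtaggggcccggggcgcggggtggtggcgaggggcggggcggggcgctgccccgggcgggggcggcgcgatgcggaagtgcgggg

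The Irf1 window holds a gamma-activated site match, TTCCCCGAA, with its first base 90 bases before the start, and a kappa-B match, GGGGAATCCC, 13 bases before it that reads on both strands. The Irf2 window holds all 3 kinds: GAAAATGAAA 241 bases, TTCCGAGAA 224 bases and the kappa-B match GGGGATTTCC 17 bases before the start. Irf8 has 2 gamma-activated site matches in the first of its 2 windows, 171 and 153 bases before the start. Of the 10 windows listed for the 7 genes, the second window of Irf1, the second of Irf8 and the windows of Irf3, Irf5, Irf7 and Irf9 held no match, which says only that these letters are not there. Over all 32851 mouse windows, 8.30% held a gamma-activated site match, 3.44% an interferon-stimulated response element match and 8.46% a kappa-B match.

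Irf5 (chr6:29526130-29541869, plus strand), the member known mainly from myeloid and B cells, was low in these cultures and differed between all 3 groups, at means of 2.02 ± 0.580 CPM in Rg1 plus LPS, 15.2 ± 2.53 CPM in LPS and 3.43 ± 0.458 CPM in control (SD, n = 5 each). It had 2.05, 1.49, 2.74, 2.42 and 1.41 CPM in Rg1 plus LPS, 12.9, 18.5, 17.2, 13.4 and 13.9 CPM in LPS, and 3.44, 2.76, 3.34, 3.57 and 4.04 CPM in control. LPS was separate and highest, and Rg1 plus LPS was separate and lowest, though its replicate 3 came within a small step of control replicate 2. Irf5 fell in Rg1 plus LPS against LPS (-2.91 ± 0.18, edgeR adjusted p = 2.57e-09) and against control (-0.76 ± 0.18, adjusted p = 0.00373), and it rose in LPS against control (2.15 ± 0.18, adjusted p = 1.07e-07). In GENCODE M21 the end of Tnpo3 overlaps Irf5 on the opposite strand over 1045 bases, and the strand setting of the counting is not given in the sources used here. Tnpo3 itself differed by -0.21 in Rg1 plus LPS against LPS (edgeR adjusted p = 0.0269) and by 0.17 in LPS against control (adjusted p = 0.103), at means of 73.3 CPM in Rg1 plus LPS, 84.6 CPM in LPS and 75.4 CPM in control, well above Irf5. The part of shared reads in the Irf5 values was not tested.

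Irf8 (chr8:120736358-120756694, plus strand) was the least abundant member, near the limit of detection. It had 7, 9, 9, 4 and 1 counts in the Rg1 plus LPS libraries, 7, 11, 35, 1 and 7 counts in the LPS libraries and 22, 4, 16, 53 and 11 counts in the control libraries. Control replicate 4 and LPS replicate 3 stood above the rest, and the groups overlapped. In the edgeR fit the log2 fold change was -1.20 ± 0.80 in Rg1 plus LPS against LPS (adjusted p = 0.242), -1.96 ± 0.77 in Rg1 plus LPS against control (adjusted p = 0.0575) and -0.76 ± 0.71 in LPS against control (adjusted p = 0.468). These values depended on single libraries. Without control replicate 4 Irf8 gave -1.22 in Rg1 plus LPS against control and -0.037 in LPS against control, and without LPS replicate 3 it gave -0.20 in Rg1 plus LPS against LPS, with -1.76 in LPS against control. Irf8 passed in Rg1 plus LPS against control without control replicate 2 (-2.23, edgeR adjusted p = 0.0337), without LPS replicate 3 (-1.96, adjusted p = 0.0269) and without LPS replicate 4 (-1.96, adjusted p = 0.0414).

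The 2 libraries with most Irf8 were also the 2 with the highest summed level of microglia and macrophage markers. Summed over 15 of the 17 markers, a choice made after seeing the data, the level was 17.7 to 35.1 CPM in Rg1 plus LPS and 39.7 to 111.6 CPM in LPS, highest in replicate 3 and next in replicate 2 (87.4 CPM). In control it was 122.4 CPM in replicate 4 and 32.9 to 37.4 CPM in the others. Of the 17 markers, 10 fell and 0 rose in Rg1 plus LPS against LPS, where 45.4% of all tested genes changed. In Rg1 plus LPS against control 7 fell and 0 rose, near the 36.9% of all genes that changed there. In LPS against control 0 changed, where 23.7% of all genes did. Without control replicate 4, 4 markers fell in Rg1 plus LPS against control and 6 rose in LPS against control. Itgam, an integrin of these cells, fell by 2.73 ± 0.43 on the log2 scale in Rg1 plus LPS against LPS (edgeR adjusted p = 9.89e-05), and Ctss, a lysosomal protease, fell by 2.08 ± 0.39 (adjusted p = 0.000503).

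Irf5 moved with these markers only in part within groups. LPS replicates 2 and 3, with the highest sums of their group, held 18.5 and 17.2 CPM of Irf5, where the other LPS libraries had 12.9 to 13.9 CPM. LPS replicate 5, with the lowest sum of its group (39.7 CPM), had 13.9 CPM, above replicates 1 and 4 at 12.9 and 13.4 CPM. In Rg1 plus LPS, replicates 5 and 2 had the lowest sums and the lowest Irf5, at 1.41 and 1.49 CPM. Replicate 1 of that group had the highest sum (35.1 CPM) but 2.05 CPM of Irf5, below replicates 3 and 4 at 2.74 and 2.42 CPM. Control replicate 4, with the highest sum of all libraries, had 3.57 CPM, inside the range of 2.76 to 4.04 CPM over the control libraries. Per unit of the 15 markers, Irf5 differed by -1.60 on the log2 scale in Rg1 plus LPS against LPS and by 1.66 in LPS against control (p = 0.00794 each, adjusted 0.0119, exact two-sided permutation test over 5 against 5 libraries), with no overlap. Rg1 plus LPS against control gave 0.053 (exact permutation p = 0.929). With all 17 markers these differences were -2.63, 2.06 and -0.56 (exact permutation p = 0.00794, 0.00794 and 0.103). The difference in Rg1 plus LPS against control passed with 6 markers (-0.74, adjusted exact permutation p = 0.0159) and without control replicate 4 (-0.70, p = 0.0476). The Irf8 ratio to all 17 markers differed by -0.42 in Rg1 plus LPS against LPS, -1.49 in Rg1 plus LPS against control and -1.07 in LPS against control, and 0 of the 3 passed (exact permutation p = 0.651, 0.0794 and 0.246), though Rg1 plus LPS against control passed without control replicate 2 (-1.93, adjusted p = 0.0476). The part of microglia in the Irf5 values was not tested beyond these ratios.

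**Figure D4:**
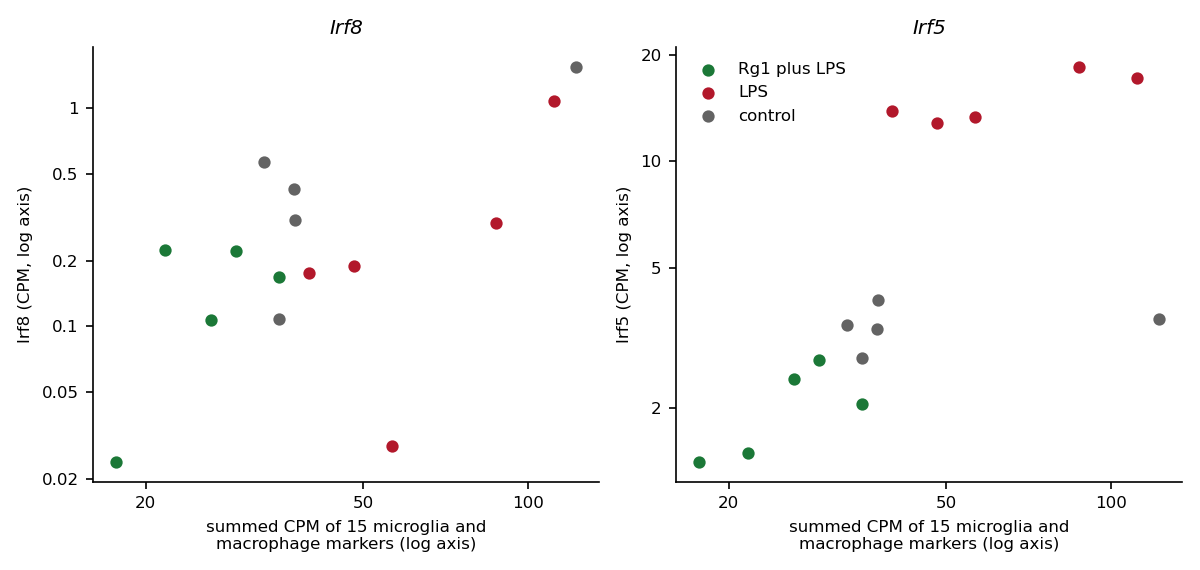
Irf8 (left) and Irf5 (right) in CPM against the summed CPM of 15 microglia and macrophage markers, 1 point per library, all axes logarithmic. Control replicate 4 has the highest marker sum at 122.4 CPM and the highest Irf8 at 1.55 CPM but 3.57 CPM of Irf5, while the 5 LPS libraries hold 12.9 to 18.5 CPM of Irf5 over marker sums of 39.7 to 111.6 CPM.

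Irf3 (chr7:44997648-45002848, plus strand) was the member that rose in Rg1 plus LPS against both other groups. Its means were 43.6 ± 4.31 CPM in Rg1 plus LPS, 32.9 ± 3.91 CPM in LPS and 26.5 ± 1.45 CPM in control (SD, n = 5 each). It had 37.8, 44.7, 45.0, 41.3 and 49.3 CPM in Rg1 plus LPS, 31.7, 35.2, 38.4, 28.2 and 31.3 CPM in LPS, and 26.2, 25.8, 28.5, 27.2 and 24.7 CPM in control. Rg1 plus LPS was separate from control, while LPS replicate 3 reached into the Rg1 plus LPS range and LPS replicate 4 into the control range. Irf3 rose in Rg1 plus LPS against LPS (0.41 ± 0.08, edgeR adjusted p = 0.000983), in Rg1 plus LPS against control (0.72 ± 0.09, adjusted p = 1.01e-05) and in LPS against control (0.31 ± 0.09, adjusted p = 0.0134). Irf3 is a GC-rich gene, at percentile 85.3 of tested genes. With the GC trend of each library removed it still rose in all 3 comparisons, by 0.33, 0.62 and 0.29 (edgeR adjusted p = 0.00139, 7.72e-06 and 0.00726). It lies at length percentile 31.3. With the length trend removed it rose by 0.31, 0.63 and 0.32 in the same order (edgeR adjusted p = 0.00633, 2.82e-05 and 0.00827). Bcl2l12 overlaps Irf3 over 1065 bases on the opposite strand and gave 0.33 in Rg1 plus LPS against LPS (edgeR adjusted p = 0.131), 0.81 in Rg1 plus LPS against control (adjusted p = 0.00206) and 0.47 in LPS against control (adjusted p = 0.0638). At means of 6.58, 5.22 and 3.76 CPM in Rg1 plus LPS, LPS and control it was much lower than Irf3, and reads of this pair cannot be told apart here.

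Irf7 (chr7:141263183-141266499, minus strand), which amplifies the type I interferon response, differed widely between libraries of the same group. Its values were 7.20, 18.8, 17.9, 10.7 and 27.8 CPM in Rg1 plus LPS, 14.3, 18.1, 29.2, 11.4 and 21.1 CPM in LPS, and 19.2, 16.6, 14.5, 16.2 and 10.1 CPM in control. The highest library held 3.86 times the lowest in Rg1 plus LPS, 2.56 times in LPS and 1.89 times in control, and the groups overlapped. Means were 16.5 ± 7.99 CPM in Rg1 plus LPS, 18.8 ± 6.89 CPM in LPS and 15.3 ± 3.34 CPM in control (SD, n = 5 each). In the edgeR fit Irf7 gave -0.19 ± 0.31 in Rg1 plus LPS against LPS (adjusted p = 0.651), 0.10 ± 0.31 in Rg1 plus LPS against control (adjusted p = 0.822) and 0.30 ± 0.31 in LPS against control (adjusted p = 0.528).

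Irf9 (chr14:55603985-55610030, plus strand) was among the most abundant members in every group, at means of 58.2 ± 15.6 CPM in Rg1 plus LPS, 54.3 ± 7.44 CPM in LPS and 49.3 ± 4.25 CPM in control (SD, n = 5 each). It had 40.8, 59.5, 67.3, 44.9 and 78.6 CPM in Rg1 plus LPS, 48.4, 58.3, 64.5, 46.1 and 54.1 CPM in LPS, and 54.4, 51.7, 47.4, 49.7 and 43.2 CPM in control. The groups overlapped, and the edgeR log2 fold changes were 0.10 ± 0.15 in Rg1 plus LPS against LPS (adjusted p = 0.609), 0.24 ± 0.15 in Rg1 plus LPS against control (adjusted p = 0.226) and 0.14 ± 0.15 in LPS against control (adjusted p = 0.537).

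Within Rg1 plus LPS, Irf1, Irf3, Irf7 and Irf9 were all lowest in replicate 1, next lowest in replicate 4 and highest in replicate 5, the library that stood apart in base composition. The 17 tested ISGF3 target genes had the same extremes: their mean centred log2 CPM was -1.23, -0.34, -0.13, -0.85 and 0.14 in Rg1 plus LPS replicates 1 to 5. In LPS it was 0.41, 1.05, 1.28, 0.31 and 0.61, lowest in replicate 4 and highest in replicate 3. Irf1, Irf3, Irf7, Irf8 and Irf9 had the same extremes there. In control it was 0.046, -0.17, -0.31, -0.098 and -0.71, lowest in replicate 5 and highest in replicate 1 as for Irf7 and Irf9. The order in Rg1 plus LPS was not limited to interferon-related genes. The same level for 6 fibroblast and meningeal markers was -1.29, -0.015, -0.080, -0.84 and 0.086 in replicates 1 to 5. Astrocyte markers were also lowest in replicates 1 and 4 (-0.40 and -0.34) but highest in replicate 3 (0.41). The GC difference was -0.033, 0.053, 0.053, 0.075 and 0.37 in replicates 1 to 5. The part of base composition in these differences between libraries was not tested.

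**Figure D5:**
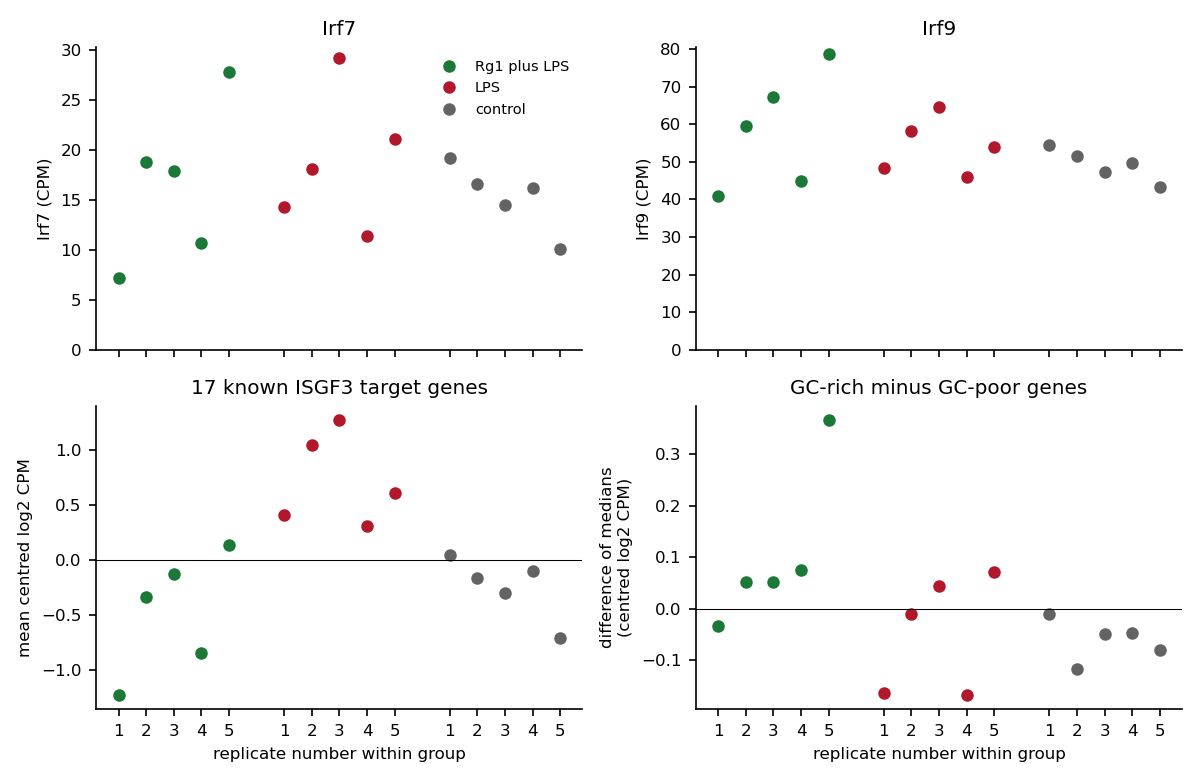
Irf7 and Irf9 (CPM), the mean centred log2 CPM of 17 ISGF3 target genes, and the difference of medians between GC-rich and GC-poor genes (centred log2 CPM), each shown for replicates 1 to 5 of Rg1 plus LPS, LPS and control. Irf7 in Rg1 plus LPS runs between 7.20 CPM in replicate 1 and 27.8 CPM in replicate 5, the replicate with a GC difference of 0.37.

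Genes that act upstream of IRF3 and IRF7 changed in both directions. Of 21 tested sensors, adaptors and kinases, 9 fell and 3 rose in Rg1 plus LPS against LPS, 4 fell and 3 rose in Rg1 plus LPS against control, and 2 fell and 9 rose in LPS against control, with median log2 fold changes of -0.31, 0.0029 and 0.33. Over all tested genes 45.4%, 36.9% and 23.7% changed in these comparisons, shares against which the counts of this and the following gene lists are to be read, and the 7 changed of 21 in Rg1 plus LPS against control lie below that share. Ikbke, the gene of IKK-epsilon, averaged 10.7 CPM in Rg1 plus LPS, 19.3 CPM in LPS and 7.49 CPM in control, and it fell in Rg1 plus LPS against LPS (-0.86 ± 0.10, edgeR adjusted p = 3.83e-06) and rose in LPS against control (1.36 ± 0.10, adjusted p = 3.41e-08). Traf3, an adaptor for these kinases, fell by 0.91 ± 0.06 in Rg1 plus LPS against LPS (edgeR adjusted p = 1.12e-08) and rose by 0.60 ± 0.06 in LPS against control (adjusted p = 2.60e-06). Myd88, the adaptor used by IRF5, differed by -0.88 ± 0.11 and 0.95 ± 0.11 in the same comparisons (edgeR adjusted p = 4.65e-06 and 4.23e-06). Ticam1, the TLR3 and TLR4 adaptor that leads to IRF3, went the other way, at 0.20 ± 0.07 and -0.37 ± 0.07 (edgeR adjusted p = 0.0383 and 0.00165). Mavs, the adaptor of the RNA sensors, rose in Rg1 plus LPS against LPS (0.28 ± 0.07, edgeR adjusted p = 0.00207) and against control (0.34 ± 0.07, adjusted p = 0.000796). The TBK1-binding gene Tbkbp1 rose in Rg1 plus LPS against LPS by 0.57 ± 0.10 (edgeR adjusted p = 0.000294). Tlr4, the LPS receptor itself, averaged 18.6 CPM in Rg1 plus LPS, 21.1 CPM in LPS and 31.0 CPM in control, and it fell against control in Rg1 plus LPS (-0.74 ± 0.14, edgeR adjusted p = 0.000672) and in LPS (-0.56 ± 0.14, adjusted p = 0.00800).

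Ifnb1, the interferon beta gene that IRF3 and IRF7 switch on, was nearly confined to LPS. It had 0, 0, 1, 0 and 0 counts in Rg1 plus LPS, 39, 52, 57, 20 and 56 counts in LPS, and 0, 0, 0, 1 and 1 counts in control. Per library size the LPS level was 248 times that of Rg1 plus LPS (95% exact counting interval 44.1 to 9850) and 113 times that of control (30.8 to 935), intervals that cover counting error only. Of the other 10 interferon genes looked up, 3 had a symbol in the files and of these Ifnz alone had enough counts to be tested, at 1.74 ± 0.64 in Rg1 plus LPS against control (edgeR adjusted p = 0.0415) on means of 0.338 CPM in Rg1 plus LPS and 0.0998 CPM in control. The call on this gene ended with the length or GC trend removed, with no filter, with only 2 groups fitted, with the replicate block and without any of Rg1 plus LPS replicates 1, 2, 4 and 5 or control replicates 1, 2 and 5.

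All 9 interferon receptor and JAK kinase genes were tested, and 8 fell and 0 rose in Rg1 plus LPS against LPS, with a median of -0.70. Against control, 3 fell and 1 rose in Rg1 plus LPS, and in LPS against control 1 fell and 8 rose, with a median of 0.74. Jak2, the kinase of the interferon gamma receptor, averaged 44.2 CPM in Rg1 plus LPS, 122.8 CPM in LPS and 65.1 CPM in control, and it fell by 1.47 ± 0.08 in Rg1 plus LPS against LPS (edgeR adjusted p = 3.08e-10). Ifngr2, a chain of that receptor, fell by 1.02 ± 0.08 and Ifnar1, a chain of the type I receptor, by 0.90 ± 0.07 (edgeR adjusted p = 3.72e-08 and 2.15e-08). Jak1, which both receptors use, was the gene that fell in LPS against control (-0.23 ± 0.06, edgeR adjusted p = 0.00846) and it also fell in Rg1 plus LPS against control (-0.72 ± 0.06, adjusted p = 1.49e-07).

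Of 7 tested DNA-binding partners of the family, 4 fell and 0 rose in Rg1 plus LPS against LPS, 0 fell and 1 rose in Rg1 plus LPS against control, and 0 fell and 4 rose in LPS against control. The count of falling partners in Rg1 plus LPS against control was 2 without Rg1 plus LPS replicate 3 and 1 with DESeq2. Batf, which binds DNA with IRF4 and IRF8, averaged 1.63 CPM in Rg1 plus LPS, 8.21 CPM in LPS and 1.12 CPM in control, a log2 fold change of -2.32 ± 0.29 in Rg1 plus LPS against LPS, with 2.88 ± 0.30 in LPS against control (edgeR adjusted p = 9.10e-06 and 2.60e-06). Spi1, the myeloid factor PU.1 that recruits IRF8, fell in Rg1 plus LPS against LPS (-2.74 ± 0.51, edgeR adjusted p = 0.000353) and rose in LPS against control (1.67 ± 0.47, adjusted p = 0.0171). It was highest in LPS replicate 3 at 4.24 CPM and, among control libraries, in replicate 4 at 1.79 CPM, as the microglia markers were. The related gene Spib had 0 counts in all over Rg1 plus LPS, 219 over LPS and 1 over control, at least 80.9-fold lower in Rg1 plus LPS than in LPS when 3 counts over the group are taken as the floor. Stat2, which joins IRF9 in ISGF3, did not pass in any comparison and gave -0.30, 0.18 and 0.47 in Rg1 plus LPS against LPS, Rg1 plus LPS against control and LPS against control.

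Among the genes of IRF2-binding cofactors, which repress with IRF2, Irf2bp2 changed in the opposite direction to Irf2 in both comparisons with LPS. It averaged 90.6 CPM in Rg1 plus LPS, 59.6 CPM in LPS and 141.3 CPM in control, with no overlap between any 2 groups. Irf2bp2 rose in Rg1 plus LPS against LPS (0.60 ± 0.07, edgeR adjusted p = 2.54e-06) and fell in LPS against control (-1.25 ± 0.07, adjusted p = 7.61e-10) and in Rg1 plus LPS against control (-0.64 ± 0.07, adjusted p = 2.89e-06). Irf2bpl fell by 0.59 ± 0.07 in Rg1 plus LPS against control and by 0.66 ± 0.07 in LPS against control (edgeR adjusted p = 1.32e-05 and 3.31e-06). Irf2bp1 rose by 0.21 ± 0.07 and 0.22 ± 0.07 in the same comparisons (edgeR adjusted p = 0.0238 and 0.0295), and both calls ended without control replicate 4 or 5 and with no filter on low counts.

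Most genes on a list of known IRF1 targets changed with LPS. Of 15 tested, 10 fell and 0 rose in Rg1 plus LPS against LPS, 2 fell and 1 rose in Rg1 plus LPS against control, and 0 fell and 10 rose in LPS against control, with medians of -1.23, -0.12 and 1.00. Without Rg1 plus LPS replicate 4 or control replicate 4, 0 fell in Rg1 plus LPS against control, and 2 rose without Rg1 plus LPS replicate 1. Nos2, the inducible nitric oxide synthase, had 1 count in all in Rg1 plus LPS, 9416 in LPS and 2 in control. Il15, the interleukin 15 gene, was the target that rose in Rg1 plus LPS against control (1.08 ± 0.32, edgeR adjusted p = 0.0161), on means of 1.74 CPM in Rg1 plus LPS, 10.6 CPM in LPS and 0.826 CPM in control. Cd274, which encodes PD-L1, averaged 2.53 CPM in Rg1 plus LPS, 21.2 CPM in LPS and 2.74 CPM in control (-3.06 ± 0.18 in Rg1 plus LPS against LPS, edgeR adjusted p = 9.56e-10, with 2.94 ± 0.18 in LPS against control, adjusted p = 2.33e-09). Gbp2, an interferon-induced GTPase, averaged 47.8 CPM in Rg1 plus LPS, 320.3 CPM in LPS and 85.1 CPM in control (edgeR log2 fold change -2.74 ± 0.28 in Rg1 plus LPS against LPS, adjusted p = 1.77e-06). Psmb8, a subunit of the immunoproteasome, fell by 1.23 ± 0.25 in Rg1 plus LPS against LPS (edgeR adjusted p = 0.000890), whereas its partner Psmb9 gave -0.63 ± 0.34 (adjusted p = 0.140). Nlrc5, the activator of MHC class I genes, gave 0.085 ± 0.25 (edgeR adjusted p = 0.810).

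Of the 17 tested ISGF3 targets, 9 fell and 0 rose in Rg1 plus LPS against LPS, and 15 fell without Rg1 plus LPS replicate 5. Against control, 0 changed in Rg1 plus LPS by edgeR (1 fell with DESeq2, 2 with limma voom and 2 without Rg1 plus LPS replicate 5), and in LPS against control 6 rose and 0 fell (10 rose with only those 2 groups fitted). The targets with the smallest p in Rg1 plus LPS against control were Ifi44 (-0.48, edgeR adjusted p = 0.0676) and Ddx60 (-0.76, adjusted p = 0.110). Rsad2, the antiviral protein viperin, averaged 1.65 CPM in Rg1 plus LPS, 33.2 CPM in LPS and 2.08 CPM in control, and Parp14 averaged 13.1, 99.4 and 12.9 CPM in the same groups. Rsad2 fell by 4.33 ± 0.33 and Parp14 by 2.92 ± 0.19 in Rg1 plus LPS against LPS (edgeR adjusted p = 6.17e-08 and 9.17e-09). Other targets of the complex did not pass in any comparison, such as Usp18 at -0.62, -0.19 and 0.44 and Bst2 at -0.057, 0.056 and 0.11 in Rg1 plus LPS against LPS, Rg1 plus LPS against control and LPS against control.

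Across the 15 libraries, the genes whose centred log2 CPM ran closest to each member were looked up among 12487 genes, by the mean absolute difference. For Irf1 they were Bcl3, an NF-kB cofactor (0.30), Stx11 (0.31) and Birc3, an inhibitor of cell death (0.32). Birc3 had -3.52 ± 0.13 in Rg1 plus LPS against LPS, with 2.84 ± 0.13 in LPS against control, but in Rg1 plus LPS against control -0.68 ± 0.12, where Irf1 had -1.42 ± 0.20. For Irf5 they were the TNF receptor gene Tnfrsf1b (0.18), Slc25a25 (0.19) and the interleukin 15 receptor gene Il15ra (0.24). For Irf2 they were Slc31a2 (0.099), Ephb4 (0.11) and Chd4 (0.11), and for Irf3 they were Tpra1 (0.083), Zkscan7 (0.11) and Pex26 (0.11). For Irf7 they were the ISGF3 targets Xaf1 (0.16) and Usp18 (0.17) and then Arsi (0.17), and for Irf9 they were Cbx6 (0.081), Dact3 (0.085) and Cercam (0.086). For Irf8 they were the microglia genes Trem2 (0.60) and C1qb (0.64) and then Lhx6 (0.65), at a much larger distance. By the root mean square difference instead, the genes nearest to Irf7 were Wfikkn2, Xaf1 and Adamts8, without Usp18. In GC content, Cbx6, Dact3 and Cercam lay at percentiles 76.7, 99.8 and 82.9 of tested genes. Arsi, Wfikkn2 and Adamts8 lay at 91.6, 80.5 and 88.1, but Xaf1 and Usp18 at 37.7 and 56.4. Irf7 and Irf9 themselves lay at 79.3 and 53.6. The part of base composition in these likenesses was not tested. Between members, by the mean absolute difference, Irf3 and Irf9 were closest (0.20), Irf7 and Irf9 next (0.25), and Irf1 and Irf5 lay 0.60 apart. This measure grows with the size of the changes, so members that vary little lie close. Irf1 and Irf5 had the same calls and directions in every comparison, whereas Irf3 was called changed in each and Irf9 was not called in any.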

How the data were processed

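Polyadenylated RNA of 15 libraries was extracted with TRIzol and made into libraries with the VAHTS Universal V6 kit, per the labels. The values the authors deposited are raw counts for each gene symbol and FPKM, counts scaled to gene length and library total. The submitters' processing notes name GRCm38 and mm10, while aligner, counter, annotation and strandedness were not given in the sources used here. In the deposited FPKM files 37 damaged rows each were left out, none of them a member. For Rg1 plus LPS the treatment entries differ between libraries, so titles and design text were followed. Depth was 34199966 to 41764010 counts per library.

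Tests on counts used edgeR 4.0.16 under R 4.3.3 (filterByExpr, TMM, robust quasi-likelihood fit over 15 libraries, group as the only term, two-sided tests), which was tested on simulated data. P-values were adjusted by Benjamini-Hochberg over 15362 genes, with 0.05 as the threshold. The IRF2-binding, partner, upstream, ligand, receptor, target and cell type marker lists (142 of 151 entries found) and the members were chosen with earlier results of these data known. Named genes were all members and genes drawn from up to 3 genes per direction of each list by adjusted p, and the 3 nearest genes of each member. List genes outside that rule (Psmb8, Psmb9, Nlrc5, Stat2, Bst2, Irf4) and the genes overlapping members were named after their values were seen. Some looked-up genes are not reported here. Ratios used a pseudocount of 0.01. Alternatives were RLE and unscaled libraries, no filter, DESeq2 1.42.0, limma 3.58.1 voom, 2 groups only, length and GC trends removed, a replicate block, leaving out each library and, for ratios, 6 or 15 markers and a pseudocount of 0.1. Gene positions are from RefSeq GRCm38.p6, gene overlaps from GENCODE M21.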

Additional observations from a re-analysis of the deposited data

Results flagged for a closer look

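Among the 5 LPS libraries, Irf8 in replicate 3 lay far from the rest: its gap to the next library was 0.742 of the group's whole range, at 1.08 CPM, where the other LPS libraries had 0.0282 to 0.298 CPM. The ratio of Irf8 to the 17 microglia and macrophage markers in Rg1 plus LPS replicate 5 was likewise low, with a gap of 0.714 of the range and 1 count of Irf8 behind it. The critical value for 5 samples is 0.71. Of 30 groups tested these 2 stood out, and chance gives about 1 in 20.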

How the results depend on the processing

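Irf1, Irf3 and Irf5 kept direction and call in all 3 comparisons, and Irf2 in the 2 comparisons with LPS, under every alternative run. Rg1 plus LPS against control had 3 changed members, and 3 to 5 when 1 library was left out (5 without LPS replicate 4, where Irf2 at 0.19 and Irf8 at -1.96 passed). Irf2 also passed there with unscaled libraries (0.26) and with the GC trend removed (0.25, an alternative chosen after seeing the data), and Irf8 with DESeq2 (-2.004). Unscaled libraries put the median of all genes at 0.14 in Rg1 plus LPS against LPS, and the share of changed genes that were higher at 65.0% against 48.9% there, 63.9% against 50.9% in Rg1 plus LPS against control and 45.9% against 58.5% in LPS against control. The uncalled Irf7 value in Rg1 plus LPS against control changed sign with limma voom (-0.014), the length trend removed (-0.043), the replicate block (-0.028), and without Rg1 plus LPS replicate 5 (-0.15) or control replicate 5 (-0.020), within a leave-one-out range of -0.15 to 0.29. In Rg1 plus LPS against LPS, Irf7 did so without LPS replicate 3 (0.028, range -0.44 to 0.028) and Irf9 without Rg1 plus LPS replicate 5 (-0.010, range -0.010 to 0.21). The Irf8 ratio to microglia markers in Rg1 plus LPS against LPS ran from -1.01 to 0.10 when 1 library was left out (0.053 without LPS replicate 3) and was 0.61 with 15 markers, a choice made after seeing the data. In Rg1 plus LPS against control it ran from -1.93 to -0.97, passing without control replicate 2, and the Irf5 ratio from -0.70 to -0.42, passing without control replicate 4 and with 6 markers (-0.74), with 0.053 for 15 markers. The cause was not tested.

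Replicate numbers were not taken as pairing the samples, since they are not stated to mark a shared culture or day. With each gene's group mean subtracted from its log2 CPM, the deviations of same-number libraries correlated at -0.22 to 0.16 in LPS with control. These correlations were 0.050 to 0.42 in Rg1 plus LPS with LPS and -0.22 to 0.14 in Rg1 plus LPS with control. On these deviations, libraries correlated best with their own number in 3 of 5 pairs of Rg1 plus LPS with LPS (replicates 3, 4 and 5). They did so in 1 of 5 of Rg1 plus LPS with control and 0 of 5 of LPS with control. With the replicate block 7254 genes changed in Rg1 plus LPS against LPS, 6027 in Rg1 plus LPS against control and 4113 in LPS against control, beside 6976, 5671 and 3635 without it. In a sign-flip test within pairs, whose smallest p is 0.0625, the Irf1 to Irf2 ratio (-3.55, -1.62 and 1.94) gave p = 0.0625 each and the Irf5 ratio (-2.63 and 2.06) an adjusted exact permutation p = 0.0938 each. Depth limits Irf8, with 30, 61 and 106 counts in Rg1 plus LPS, LPS and control.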

Other observations

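Phrf1 and Rnf31 also overlap members. Phrf1 shares 45 bases with Irf7 on the opposite strand and fell in Rg1 plus LPS against LPS (-0.56 ± 0.08, edgeR adjusted p = 4.80e-05), where Irf7 gave -0.19. Rnf31, a subunit of the linear ubiquitin ligase, shares 123 bases with Irf9 on the same strand, and it fell in Rg1 plus LPS against LPS (-0.45 ± 0.10, adjusted p = 0.00158) and rose in LPS against control (0.59 ± 0.10, adjusted p = 0.000394), where Irf9 gave 0.10 and 0.14.

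The marker lists of other cell types differed in how often their genes changed in Rg1 plus LPS against LPS. Over all tested genes 45.4% changed there, 36.9% for Rg1 plus LPS against control and 23.7% for LPS against control. Of 12 astrocyte markers, 2 fell and 6 rose in Rg1 plus LPS against LPS, 5 fell and 0 rose in Rg1 plus LPS against control, and 7 fell and 0 rose in LPS against control. Sox9, an astrocyte transcription factor, averaged 122.7 CPM in Rg1 plus LPS, 70.1 CPM in LPS and 193.0 CPM in control. Of 7 oligodendrocyte lineage markers 3 fell and 2 rose, of 6 neuron markers 0 fell and 1 rose, of 6 endothelial and mural markers 2 fell and 0 rose, and of 6 fibroblast markers 1 fell and 0 rose in Rg1 plus LPS against LPS. Pdgfra, which marks both oligodendrocyte precursors and fibroblasts, averaged 12.0 CPM in Rg1 plus LPS, 17.9 CPM in LPS and 42.2 CPM in control.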
